A study of Mus musculus with 1 sample.

Results

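The S100 proteins described here are 8 of the 17 S100 genes measured in wild type mouse gastric organoids, and 8 of 32285 genes in all: S100a1, S100a4, S100a6, S100a10, S100a11, S100a13, S100a14 and S100a16. The members were taken by gene name from the gene list of the wild type library, and the list of names was drawn up with earlier results of these data known. They are the 8 S100 genes with the most UMIs here, at least 205 each against at most 39 for the other 9. Organoids are 3-dimensional cultures grown from tissue, here from stomach. They carried no modified allele and had no treatment, were collected on day 7 after seeding, and were digested to single cells with 0.05% trypsin-EDTA for 30 min. There was 1 library, so no value below has a replicate and no test between conditions was made. The number of animals behind the organoids is not given in the sources used here.

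S100 proteins are small calcium-binding proteins of the EF-hand type that usually work as pairs. On binding calcium most of them open a surface that grips other proteins, among them annexins, which attach to membranes, and the actin and myosin of the cell's skeleton. S100a10 is the exception in that it no longer binds calcium and forms a stable complex with annexin A2 at the membrane, while S100a11 is best known for binding annexin A1 and S100a6 for binding annexins A2 and A11 and the protein Cacybp. In epithelia several S100 proteins are known for their part in barrier formation, repair and tumour growth.

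After removal of 99 of 1991 barcodes with under 500 genes or over 20% mitochondrial UMIs, 1892 cells remained. A UMI is a molecular tag that counts a captured transcript once. The cells held 20118334 UMIs, with a median of 8512.5 per cell and a range of 890 to 47183. The level of a gene is its summed count per 1000000 UMIs (CPM). Each transcript was counted at its 3′ end, so the counts were not divided by length. All intervals are 95% intervals for counting error only, and do not cover the spread between cells, cultures or animals. The cells matched their epithelial label: a Krt18 UMI was found in 99.6% of cells, Krt8 in 97.9% and Epcam in 96.6%. Of 6 leukocyte markers, the defining gene Ptprc and the T cell gene Cd3e had 1 UMI each and Itgam none. Cd68, a lysosomal gene, had 196 UMIs in 8.56% of cells, Lyz2 80 UMIs in 0.476% and Csf1r 13 UMIs. Of 5 neutrophil markers, Ly6g had 46 UMIs, Retnlg 18, S100a9 1 and the others none. Summed over each list, the clusters described further on ranged from 6.23 to 18.6 CPM for leukocytes, from 0 to 5.23 CPM for neutrophils and from 0 to 0.774 CPM for fibroblasts.

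All 8 genes lie on mouse chromosome 3 (build GRCm38), within 3.05 Mb, in groups at the ends of the epidermal differentiation complex, a stretch of genes for skin and other surface epithelia. S100a1, S100a13, S100a14, S100a16, S100a4 and S100a6 follow each other from chr3:90511034 to chr3:90624181, and S100a11 and S100a10 lie from chr3:93520488 to chr3:93564643. S100a1 is read from the minus strand and the other 7 from the plus strand. Of 121 genes annotated over the whole span, 80 are rows of the matrix and 14 had at least 100 UMIs, and 8 of those were the S100 genes described here. The other 6 were Sprr2a3, Sprr2b, Sprr1a, Crct1, Gm37245 and Tchh, of which Sprr2a3 was highest at 52.8 CPM.

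Upstream sequences are shown for the pair with the closest start sites and for the pair whose levels moved together most closely over cells, both described further on. They were taken from RefSeq promoters of build GRCm38.p6, which matched 6 of the 8 genes, and trimmed to the bases outside annotated genes. The first line is the whole gap of 42 bases between S100a1 and S100a13, which are read away from each other (chr3:90514393-90514434, plus strand). The other lines end just before the start sites of S100a6 (chr3:90612644-90612881, plus strand) and S100a11 (chr3:93520246-93520487, plus strand). Capitals mark matches to searched motifs: the CCAAT box in S100a6, read on the minus strand, and the AP-1 site TGANTCA and the SP1 box GGGCGG in S100a11.
S100a13: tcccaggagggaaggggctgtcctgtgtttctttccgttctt
S100a6: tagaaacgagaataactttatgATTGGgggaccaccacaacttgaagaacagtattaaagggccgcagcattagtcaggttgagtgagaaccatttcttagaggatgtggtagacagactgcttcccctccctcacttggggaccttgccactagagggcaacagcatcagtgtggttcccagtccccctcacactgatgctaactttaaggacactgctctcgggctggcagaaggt
S100a11: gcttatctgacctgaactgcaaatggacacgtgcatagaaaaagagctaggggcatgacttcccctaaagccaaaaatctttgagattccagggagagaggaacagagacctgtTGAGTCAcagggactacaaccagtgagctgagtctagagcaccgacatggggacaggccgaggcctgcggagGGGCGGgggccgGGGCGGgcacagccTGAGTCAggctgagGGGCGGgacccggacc
The S100a11 stretch held 2 AP-1 and 3 SP1 matches, and the S100a6 stretch 1 CCAAT match. Among all 32851 RefSeq windows of 250 bases, searched on both strands, 6.75% held the AP-1 letters, 32.7% the SP1 letters and 33.8% the CCAAT letters. Of the 2 windows listed for S100a16, 1 held an AP-1 and an SP1 match. The letters TATAAA of the TATA box were found in none of the windows of S100a1, S100a6, S100a11, S100a13 and S100a16 and in that of S100a4, 31 bases before its RefSeq start, against 12.4% of all windows. The interferon-gamma activated site TTCNNNGAA was in no member's window and in 7.02% of all. These matches describe letters in the reference and are not measurements of binding.

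The levels of the 8 genes spanned from 2978 CPM for S100a6 to 10.2 CPM for S100a4. Together they took 132229 UMIs, 6573 CPM (6537 to 6608) or 0.657% of all gene UMIs, and S100a6, S100a11 and S100a10 held 93.5% of that sum. The other 9 S100 genes together had 152 UMIs. A cell thinned at random to 3000 UMIs, which puts all cells at 1 depth and kept 1835 of them, held a median of 17 UMIs from the 8 genes, with 6 at the 5th and 40 at the 95th percentile.

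**Figure D1:**
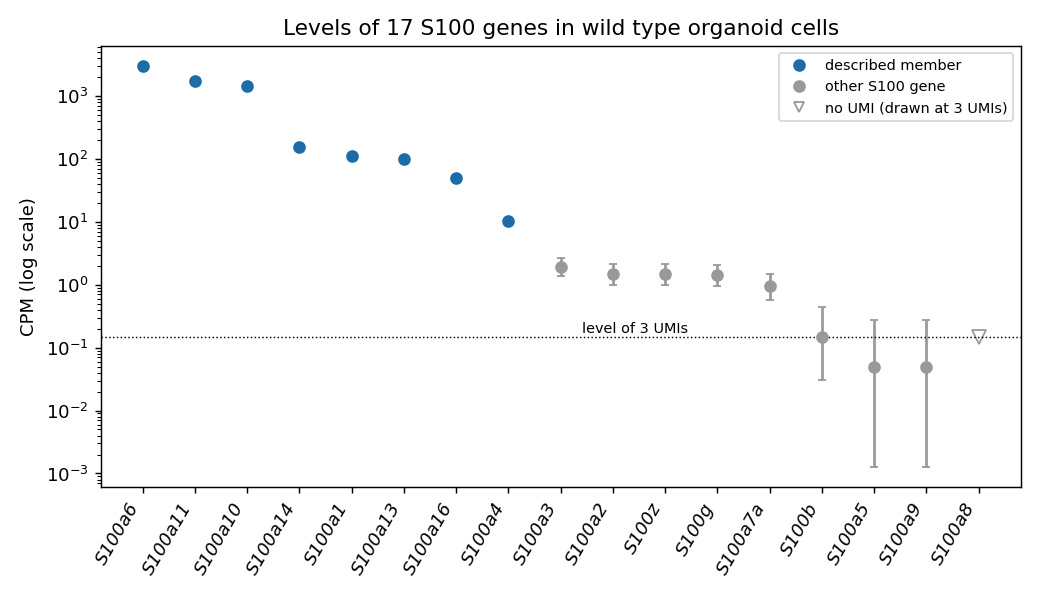
Level of each S100 gene in CPM (log axis) over 1892 cells of the wild type library, with 95% Poisson intervals for counting error as bars; the intervals of the 8 members are smaller than or near the size of the points. Blue points are the 8 genes described and grey points the other S100 genes; S100a8 had no UMI and is drawn at the level of 3 UMIs (0.149 CPM).

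S100a6, also called calcyclin, was the highest S100 gene at 2978 CPM (2954 to 3002), which ranked it 75th of all genes. S100a11 followed at 1741 CPM (1723 to 1759), ranked 114th, and S100a10 at 1427 CPM (1411 to 1444), ranked 125th. Their intervals did not overlap. All 3 were detected in nearly every cell: at 3000 UMIs, 97.1% of cells (96.2 to 97.8%) held S100a6, 97.7% (96.9 to 98.3%) S100a11 and 94.5% (93.4 to 95.5%) S100a10, and without thinning 99.5%, 99.4% and 98.3%. No cluster of cells lacked these genes, so how many of the UMIs came from free RNA in the droplets was not tested. The S100a11 count carries an added uncertainty, because 47.0% of its 31-base words also occur in the processed pseudogene Gm12854, 33.1% in Gm7665, 8.11% in Gm29240 and 4.99% in S100a11-ps, none of which is a row of the count matrix.

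The middle tier held S100a14, an S100 gene of many epithelia, at 154 CPM (149 to 160), S100a1 at 113 CPM (109 to 118), S100a13 at 98.9 CPM (94.6 to 103) and S100a16 at 49.6 CPM (46.6 to 52.8). S100a1 is best known as a regulator of calcium handling in muscle, and S100a13 for carrying Fgf1 and Il1a out of cells by a route outside the secretory pathway. The cargo genes were scarce here, with 35 UMIs of Fgf1 and 5 of Il1a in the library. At 3000 UMIs, S100a14 was found in 31.2% of cells (29.1 to 33.4%), S100a1 in 26.8% (24.8 to 28.9%), S100a13 in 24.6% (22.7 to 26.7%) and S100a16 in 14.1% (12.6 to 15.8%). Without thinning the same shares were 61.4%, 59.1%, 55.1% and 33.6%, so they depend strongly on depth. The intervals of the levels of S100a1 and S100a13 did not overlap, and those of their shares at equal depth did.

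S100a4, a binder of nonmuscle myosin that is widely used as a fibroblast and cell motility marker, was lowest at 10.2 CPM (8.84 to 11.7), with 205 UMIs spread over 8.62% of cells, or 2.62% at 3000 UMIs (1.93 to 3.45%). Of the 6 fibroblast markers, Pdgfra had 5 UMIs and Col1a1 1, and Col1a2, Col3a1, Dcn and Thy1 had none. S100a4 overlaps the annotated gene Gm42674, which shares 49.2% of its 31-base words and is not a row of the matrix. The remaining S100 genes were lower still: S100a3 had 39 UMIs, S100a2 and S100z 30 each, S100g 29, S100a7a 19 and S100b 3. Of the calprotectin pair of neutrophils, S100a9 had 1 UMI. S100a8 had none in 1892 cells, which at 3 counts allows up to 0.159% of cells with a UMI, and 0.195% by the exact interval. S100a5 had 1 UMI.

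S100a6 also varied most from cell to cell. Its counts at 3000 UMIs had a 5th percentile of 1, a median of 6, a 95th percentile of 22.3 and a maximum of 169. S100a11 ran from 1 through a median of 5 to 12 at the same percentiles, with a maximum of 28, and S100a10 from 0 through 4 to 11, with a maximum of 21. The Fano factor, the variance over the mean, which is near 1 for counting noise alone, was 10.0 for S100a6, 2.41 for S100a10 and 2.30 for S100a11. S100a6 ranked 13th of 3850 genes with at least 500 UMIs by this measure, and 7th of the 125 genes at or above the level of S100a10, whose median was 1.92. Among the lower members the Fano factor was 1.63 for S100a14, 1.17 for S100a13, 1.12 for S100a1, 1.10 for S100a16 and 1.01 for S100a4, against a median of 1.05 over the 3850 genes. These values hold at 3000 UMIs and depend on depth: at 5000 UMIs that of S100a6 was 16.7.

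**Figure D2:**
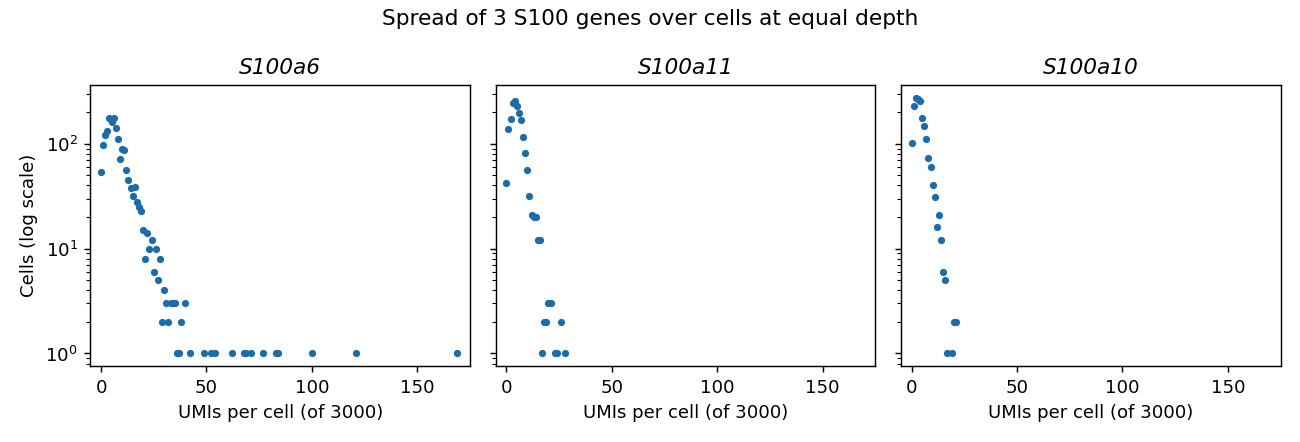
Number of cells (log axis) at each UMI count of S100a6, S100a11 and S100a10 after every cell was thinned to 3000 UMIs (1835 cells). S100a6 reaches 169 UMIs in its highest cell, while S100a11 ends at 28 and S100a10 at 21.

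The long upper end of S100a6 came from few cells. After the values were seen, cells with at least 40 UMIs of S100a6 among 3000 were set apart: 17 cells, 0.926% of the total, that held 7.63% of the S100a6 UMIs, with 22 further cells at 30 to 39. The 2 highest cells had 169 and 121 UMIs. None of the 17 was called a doublet, they carried both sample tags (7 of them CMO301), and they fell in cluster 1 (7 cells), cluster 2 (1), cluster 3 (5) and cluster 4 (4). Their median depth was 7576 UMIs against 8725 in the other cells, and their mitochondrial share 2.24% against 4.05%. Without them the level of S100a6 was 2767 CPM and its Fano factor 5.003.

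Taken as a group, the same 17 cells also had higher summed levels of most of the other S100 genes, though not every cell held each gene: S100a14 was found in 14 of the 17, S100a16 in 8, S100a13 in 6 and S100a11 in all 17. S100a14 was at 843 CPM in them against 143 CPM in the other cells, a ratio of 5.88 (4.22 to 7.996), and S100a16 at 294 against 50.4 CPM, a ratio of 5.83 (3.22 to 9.79). The ratio was 3.17 (1.80 to 5.20) for S100a13, 2.54 (2.22 to 2.90) for S100a11 and 1.78 (1.49 to 2.12) for S100a10. S100a4 rested on 5 UMIs in the 17 cells and S100a1 on 11, with an interval for S100a1 of 0.978 to 3.55. Anxa2, the annexin partner, stood at a ratio of 3.58 (2.70 to 4.66) and the simple-epithelial keratin Krt7 at 2.43 (1.87 to 3.11), while Epcam was at 1.17 (0.845 to 1.58) and Krt8 at 1.14 (0.864 to 1.47). Sprr1a, a cornified envelope gene from between the S100 groups, was at 588 against 12.8 CPM, from 30 UMIs in 5 of the 17 cells, and Cnfn, another such gene, at a ratio of 57.0 (29.0 to 108) from 4 cells. Psca was at 10.1 (7.08 to 14.04) from 9 cells and the pit cell marker Gkn1 at 16.7 (11.6 to 23.6) from 3 cells. The intervals treat UMIs as independent, so they are too narrow for Sprr1a, Cnfn and Gkn1, whose UMIs sit in 5, 4 and 3 cells. Of the pit cell markers only Gkn1 was looked at in these cells. Since the cells were chosen by S100a6, these ratios describe them and are not a test.

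Across the 1892 cells all 28 pairs of the 8 genes had a positive correlation. Pearson's r was taken on ln(UMIs per 10000 + 1). Every cell comes from the same library, depth and RNA quality differ between cells, and cells are not replicates, so r is given as a description. The median over the 28 pairs was 0.15, with a range of 0.04 to 0.50, against a median of 0.02 over all 7409325 pairs of the 3850 genes, of which 70.7% were above 0. S100a4, with 205 UMIs, is not among the 3850 genes, so the pairs that hold it are not part of all pairs. On counts thinned to 3000 UMIs, which evens out depth and also discards counts, the medians were 0.09 for the S100 pairs and 0.002 for all pairs. Given total UMIs and mitochondrial share, with no counts discarded, they were 0.12 and 0.006. The S100 genes include very abundant ones, and among the 1120 genes with at least 2000 UMIs the median over all pairs was 0.04 and the 95th percentile 0.16. An r of at least 0.3 was reached by 4 of the 28 pairs and by 0.0716% of all pairs. All 4 lie among S100a6, S100a10, S100a11 and S100a14. The share at this r was not computed for genes of like abundance, so the 0.0716% is not a matched background for them.

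**Figure D3:**
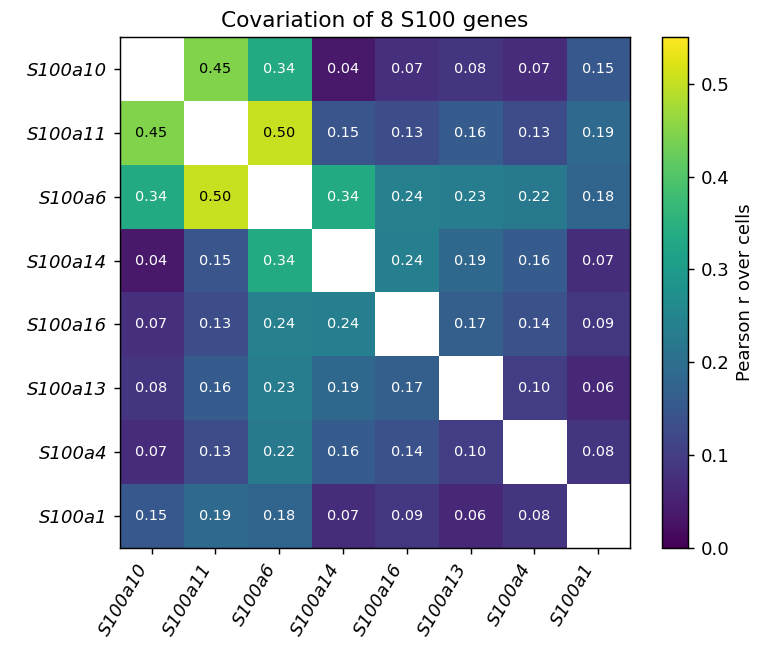
Pearson's r over 1892 cells for each pair of the 8 S100 genes, with the value printed in each field and the colour scale running from 0 to 0.55. The block of S100a10, S100a11 and S100a6 at the upper left holds values of 0.34 to 0.50, S100a14 is tied to S100a6 at 0.34 and to S100a10 at 0.04.

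The most closely matched pair was S100a6 and S100a11, at r = 0.50. It was 0.36 on thinned counts, 0.44 given total UMIs and mitochondrial share, and between 0.37 and 0.60 within each of the 6 clusters. S100a10 and S100a11 followed at 0.45 (0.31 thinned), and S100a6 and S100a10 stood at 0.34 (0.27 thinned). The mitochondrial share of a cell moved against all 3, with r of −0.36 for S100a11, −0.32 for S100a6 and −0.29 for S100a10. Their r with the logarithm of total UMIs was between 0.08 and 0.18.

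S100a14 varied apart from S100a10. Its r was 0.34 with S100a6 (0.22 thinned), 0.24 with its neighbour S100a16 (0.14 thinned), and 0.04 with S100a10, the lowest of the 28. The r of S100a10 and S100a14 was 0.11 within clusters and −0.02 given total UMIs and mitochondrial share, so its sign was not fixed. S100a6 had the same r, to 2 decimals, with both. S100a6 also had an r of 0.24 with S100a16, 0.23 with S100a13 and 0.22 with S100a4, and on thinned counts these were 0.14, 0.13 and 0.14. The r with S100a4 was 0.17 without the 17 cells rich in S100a6, 0.13 in the cells of tag CMO301 and 0.31 in those of CMO302. By r, S100a6 ranked 1st of 3850 genes for S100a4 and 2nd for S100a16. Both genes are sparse, and the values are given as a description only.

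The pairs were also set against their distance on the chromosome. The 16 pairs with start sites within 150 kb had a median r of 0.17 (0.06 to 0.45), and the 12 pairs across the gap between the groups a median of 0.14 (0.04 to 0.50). S100a1 and S100a13, whose start sites lie 43 bases apart on either side of the printed gap, had an r of 0.06, and 0.003 on thinned counts, at levels of 113 and 98.9 CPM. The closest match of all, S100a6 with S100a11, lies 2908 kb apart. These groups of pairs are not alike in level: every far pair holds S100a10 or S100a11, while 10 of the 16 near pairs join 2 of the sparser genes. With the same partner, nearby S100a6 had a higher r than the distant S100a11 and S100a10 for S100a4 (0.22 against 0.13 and 0.07), S100a13 (0.23 against 0.16 and 0.08), S100a14 (0.34 against 0.15 and 0.04) and S100a16 (0.24 against 0.13 and 0.07). For S100a1 the values were 0.18 against 0.19 and 0.15. S100a6 is also the most abundant of the 3, and the part of distance in r was not tested.

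**Figure D4:**
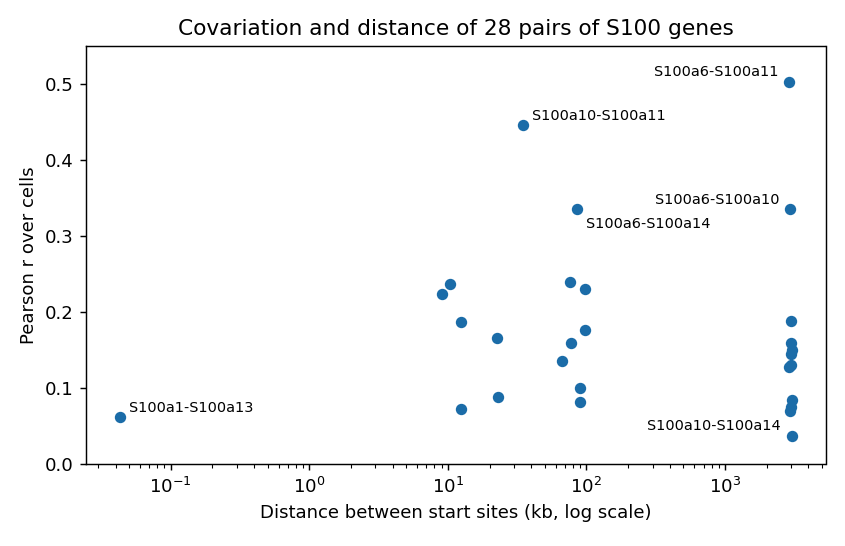
Pearson's r over cells (1892 cells) against the distance between start sites in kb (log axis) for the 28 pairs of S100 genes, 1 point per pair. S100a1 and S100a13 at 0.043 kb have an r of 0.06, while S100a6 and S100a11 at 2908 kb have the highest r of 0.50.

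Among all 3850 genes, the 5 most like S100a6 were S100a11, Krt7 (0.47), Anxa2 (0.43), Ly6c1 (0.35) and Tmsb10 (0.35). For S100a11 they were S100a6, S100a10, the surface protein Ly6a (0.42), the peroxidase Prdx1 (0.42) and the acyl-CoA-binding gene Dbi (0.40). For S100a10 they were S100a11, Ly6a (0.40), Wfdc2 (0.39), Prdx1 (0.38) and the homeobox gene Rhox5 (0.36). Ly6a, known as a mark of stem and regenerating gut epithelium in the mouse, thus appeared in the lists of S100a10 and S100a11, and its r with S100a6 was 0.35. S100a14 was looked at in the same way after its values had been seen: after S100a6 came Eif1 (0.32), the glycolytic enzyme Aldoa (0.30), the galectin Lgals3 (0.30) and Gapdh (0.29), and its lowest values were with Tmem176b (−0.32) and Tmem176a (−0.30).

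The known partners were matched unevenly. Anxa2, at 329 CPM, ranked 3rd of 3849 genes by r with S100a6 (0.43) and 1st with S100a16 (0.25), but 119th with S100a10 (0.20), the S100 gene whose protein binds it in a stable complex. Anxa1, at 659 CPM the most abundant annexin, ranked 10th with S100a10 (0.32) and 146th with S100a11 (0.21), its known partner. With S100a14 the r of Anxa1 was −0.16. Ahnak, a large scaffold that binds the S100a10 complex with annexin A2, had an r of 0.09 with S100a10 at 683 CPM. The S100a6 partners Cacybp, Sugt1 and Anxa11 had an r with it of 0.05, 0.00 and 0.04, and on thinned counts of 0.004, −0.03 and 0.03. Myh9, the myosin bound by S100a4, had an r with it of 0.06, and of −0.03 on thinned counts. The cell surface receptors reported for extracellular S100 proteins were low, with 4 UMIs of Ager and 10.6 CPM of Tlr4. Of the 12 annexins, 8 had at least 500 UMIs, and their median r was 0.17 with S100a10, 0.16 with S100a11 and 0.10 with S100a6. Of the 8 other EF-hand genes on the list, all had at least 500 UMIs, and their median r with the same 3 genes was 0.11, 0.14 and 0.09. Over all genes with at least 500 UMIs the median r with these 3 was 0.03, 0.02 and 0.02.

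The cells were divided into 6 clusters on the remaining genes, leaving out the S100, annexin, partner and other EF-hand genes, and mitochondrial genes. Lists of genes flanking the S100 genes, of cell cycle genes and of sex-linked genes were left out too. Other genes of the cell cycle and sex chromosomes could remain. Cluster 5 (90 cells) had all 7 proliferation markers in at least 10% of its cells, at a summed 1268 CPM, and was led by genes of cell division such as Aspm and Cenpf. It is called proliferating-like, and the others keep their numbers. Cluster 6 also had all 7 in at least 10% of its cells, at 789 CPM, against 87.2 to 128 CPM in clusters 1 to 4. Cluster 1 (514 cells) was led by Aox3 and Psca, cluster 2 (501 cells) by the chemokines Cxcl5 and Cxcl2, cluster 3 (408 cells) by Sprr1a, Ly6m and the stress gene Ndrg1, cluster 4 (316 cells) by 2610528A11Rik and the metallothionein Mt1, and cluster 6 (63 cells) by Cyba, Reg3g and glutathione transferases. Genes listed as markers of pit cells, the mucous cells of the stomach surface, were also high in cluster 6, at a summed 5404 CPM against 120 to 268 CPM in the others. Tff1 and Gkn3 of that list and the chief cell marker Pgc were among its 10 leading genes. Their part in the S100 values of cluster 6 was not tested. Median depth ran from 5798.5 UMIs in cluster 4 to 14281 in cluster 6. Cluster 6 also differed in sex chromosome genes, with Xist at 82.9 CPM against 327 to 652 CPM in the others and Y-linked genes at 68.3 CPM against at most 2.40 CPM. A gene was called in a cluster where its CPM was at least 1.5 times, or at most 1/1.5 of, that in the other clusters together.

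The 3 abundant genes and S100a1 and S100a13 were called in no cluster. At the finer Leiden resolution of 1.0, with 11 clusters, 7 of the 8 members were called in at least 1 cluster, and S100a1 in none. There the ratios ran from 0.429 to 2.38 for S100a6 (called in 4 clusters), 0.649 to 1.61 for S100a11 (2), 0.690 to 1.51 for S100a10 (1) and 0.714 to 1.62 for S100a13 (1). S100a6 was also called with doublets removed (0.578 to 1.70) and with 20 principal components (lowest 0.565), S100a10 in the mean over cells (lowest 0.643) and S100a13 in the cells of tag CMO302 (lowest 0.594). S100a14, S100a16 and S100a4 were each called in several. In cluster 3, S100a14 and S100a16 were called higher, which was 2 of 8 against 5.93% of the 8653 genes with at least 100 UMIs, and none was called lower (9.57% of all genes). In cluster 2 the same pair was called lower, against 3.93% of all genes, and none higher (10.7%). In cluster 5, S100a4 was called higher (11.5% of all genes) and S100a14 and S100a16 lower (6.92%). In cluster 6, S100a16 was called higher (20.8%) and S100a14 and S100a4 lower (17%). In cluster 4, S100a4 was called lower (27.2%) and no member higher (1.9%), and in cluster 1 none of the 8 was called higher (1.32%) or lower (19.8%). The median ratio of the 8 genes was 1.16 in cluster 1, 0.817 in cluster 2, 1.13 in cluster 3, 0.822 in cluster 4, 0.934 in cluster 5 and 0.955 in cluster 6, beside 0.849, 1.10, 0.9996, 0.820, 1.05 and 1.04 over all genes tested.

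S100a14 had the widest range by value in these 6 clusters. Cluster 3 was highest with 265 CPM (252 to 280), followed by cluster 4 with 189 CPM (171 to 209) and cluster 1 with 133 CPM (123 to 145). Cluster 2 had 93.5 CPM (86.0 to 101), cluster 5 had 90.6 CPM (74.9 to 109) and cluster 6 was lowest with 47.8 CPM (35.3 to 63.2). Only the neighbours in this order in clusters 2 and 5 had overlapping intervals, and the highest cluster exceeded the lowest 5.55 times (4.18 to 7.54). The sparse S100a4 ran 4.29 times (1.63 to 14.3), an interval that holds 5.55. At resolution 1.0 and with doublets removed the ratios of S100a4 ran wider than those of S100a14. Against all other clusters the ratio of S100a14 was 2.30 (2.15 to 2.47) in cluster 3. It was 0.516 (0.471 to 0.566) for cluster 2, 0.570 (0.470 to 0.686) for cluster 5 and 0.298 (0.220 to 0.395) for cluster 6. Anxa1 had 333 and 323 CPM in clusters 3 and 4, the highest in S100a14, and 896, 935, 591 and 455 CPM in clusters 1, 2, 5 and 6. Cluster 6, lowest in S100a14, was thus below the library's 659 CPM in Anxa1 too.

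S100a16 was highest in cluster 6 at 73.1 CPM (57.5 to 91.7) and cluster 3 at 69.3 CPM (62.3 to 76.8), and lowest in cluster 5 at 30.2 CPM (21.5 to 41.3). Its ratio in cluster 3 was 1.63 (1.42 to 1.85). It fell under the threshold in the cells carrying tag CMO301 (1.42), with 20 principal components (1.43) and with doublets removed (1.49). S100a4 stood at 20.9 CPM (13.8 to 30.4) in cluster 5, from 27 UMIs, a ratio of 2.21 (1.42 to 3.33). Its values in cluster 4, from 14 UMIs, and cluster 6, from 5 UMIs, had intervals of the ratio that included 1. S100a14 stayed past the threshold in the cluster that best matched clusters 3, 2 and 6 under every alternative tried. Some of these matches were mergers: at resolution 0.3 cluster 2 joined cluster 1 (1047 cells), cluster 3 joined cluster 4 (696 cells) and cluster 6 joined cluster 5 (149 cells), and with doublets removed cluster 3 joined cluster 4 (660 cells). The other calls each missed the threshold under at least 1 alternative: S100a14 reached 0.778 in cluster 5 with doublets removed, S100a16 reached 0.707 in cluster 2 among cells with tag CMO301, and at the coarser resolution of 0.3 S100a16 was at 0.997 in the cluster that joined clusters 5 and 6, and S100a4 at 1.46.

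S100a10 and S100a11 ranged less widely. S100a10 was at 1853 CPM in cluster 1, 1658 in cluster 5, 1459 in cluster 2, 1286 in cluster 6, 1167 in cluster 3 and 1031 in cluster 4, with no overlap of intervals between neighbours and 1.80 times (1.71 to 1.89) between the ends. S100a11 was at 2196 CPM in cluster 6, 2194 in cluster 1, 1769 in cluster 5, 1661 in cluster 2, 1536 in cluster 3 and 1310 in cluster 4. Among neighbours in this order only clusters 6 and 1 had overlapping intervals, and those of clusters 5 (1697 to 1843) and 2 (1629 to 1694) nearly met. With Fano factors of 2.41 for S100a10 and 2.30 for S100a11, cells differed by more than counting error. The intervals are thus too narrow to fix the order of close clusters. Both genes were thus lowest in clusters 4 and 3, where S100a14 was highest. Clusters accounted for 13.2% of the variance of S100a10 over cells, 12.3% of that of S100a14 and 11.3% of that of S100a11.

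S100a6 had 3.99% of its variance between these 6 clusters. Its level was 3585 CPM in cluster 1, 3294 in cluster 3, 3017 in cluster 6, 2819 in cluster 5, 2623 in cluster 4 and 2423 in cluster 2. The 17 cells rich in S100a6 changed this order: without them it was 3296 CPM in cluster 1, 2938 in cluster 3, 2402 in cluster 2 and 2166 in cluster 4, so that cluster 4 became the lowest and the intervals of cluster 3 (2891 to 2984) and cluster 6 (2912 to 3125) overlapped. S100a1 ran from 137 CPM in cluster 1 to 89.9 CPM in cluster 4, and S100a13 from 122 CPM in cluster 3 to 78.3 CPM in cluster 2, with overlapping intervals between all 5 pairs of neighbours in each order.

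**Figure D5:**
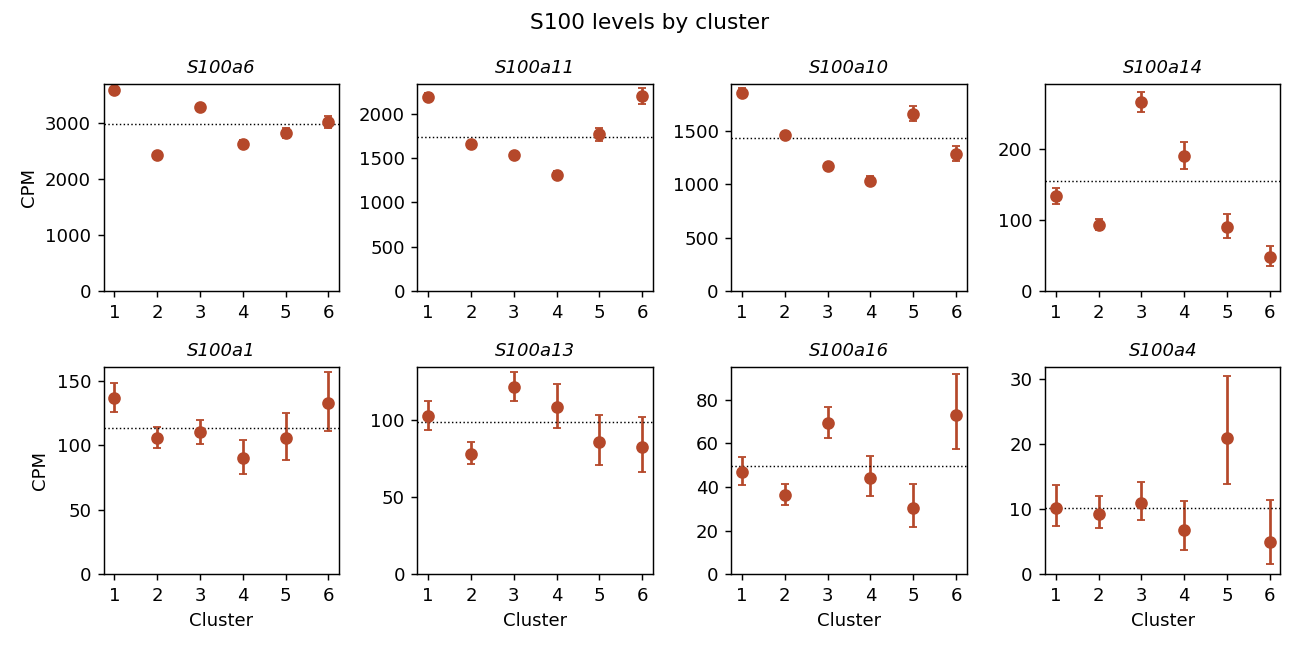
Level in CPM of each of the 8 S100 genes in clusters 1 to 6, with 95% Poisson intervals for counting error as bars, a vertical axis from 0 and the library's level as a dotted line. S100a14 is highest in cluster 3 (265 CPM) and lowest in cluster 6 (47.8 CPM), while S100a10 and S100a11 are lowest in cluster 4.

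Cells with a UMI of a gene of dividing cells were then compared with cells without one at equal depth. At 3000 UMIs, 257 cells had a UMI of Mki67 or Top2a, and 1578 had none. Of the 1578, 259 had such a UMI before thinning, so the division is not a clean one between dividing and other cells. The abundant genes were close between them: S100a6 was at 2921 against 2905 CPM, a ratio of 1.01 (0.961 to 1.05), S100a11 at 1774 against 1787 CPM, a ratio of 0.993 (0.937 to 1.05), and S100a10 at 1569 against 1421 CPM, a ratio of 1.10 (1.04 to 1.17). S100a14 was at 104 against 157 CPM, a ratio of 0.659 (0.517 to 0.831), and S100a16 at 33.7 against 55.8 CPM, a ratio of 0.605 (0.388 to 0.906). These were the 2 members called lower, against 3.15% of the 4755 genes tested. S100a4 was past the threshold as higher, at 16.9 against 7.60 CPM, a ratio of 2.22 (1.08 to 4.28) that rests on 13 and 36 UMIs. Of the 4755 genes tested, 6.56% were called higher. S100a4, ranked 6611th of all genes by level, appears too sparse to be among them. How often genes as sparse as S100a4 pass the threshold was not tested. Without cluster 6 the ratio of S100a14 was 0.729, no longer past the threshold. The ratio was 0.851 (0.658 to 1.09) for S100a1 and 0.829 (0.631 to 1.07) for S100a13, and the median over the 8 genes was 0.922 beside 1.05 over all genes. Median depth before thinning was 10014 UMIs in the cells with such a UMI and 8541 in the others.

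The matrix also counted 12 sample tags, of which CMO301 led in 1062 cells and CMO302 in 830. The labels tie no group to either tag. None of the 8 genes differed by 1.5 times between the cells of the 2 tags, against 0.497% of 8653 genes higher and 0.589% lower with CMO301, and the ratios ran from 0.825 (0.622 to 1.10) for S100a4 to 1.10 (1.01 to 1.20) for S100a1.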

How the data were processed

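Single cells of wild type mouse gastric organoids were profiled in 1 library. Per the submitters' processing notes, Cell Ranger 6.1.2 and the build GRCm38 (mm10) were used, and the labels name a 3′ kit. The deposited matrix holds raw UMI counts per gene for 1991 barcodes, not normalized, and how the authors chose the barcodes is not given in the sources used here. Barcodes with at least 500 genes and at most 20% mitochondrial UMIs were kept, tag rows were left out of library sizes, and 12 cells called as doublets by Scrublet (0.634%) were kept and removed as an alternative. Cells were thinned to 3000 UMIs for shares and Fano factors, which left out 57. Clusters used scanpy 1.11.5 (2000 variable genes, 30 principal components, 15 neighbours, Leiden resolution 0.6). Intervals are exact (Poisson for levels, Clopper-Pearson for shares, conditional binomial for ratios). The ratio, correlation and thinning steps were tested on simulated data in which nearly all genes had Poisson counts. How the intervals hold under a greater spread between cells was not tested, nor was the clustering. With 1 library no p-value was computed. The named genes are the 8 members, the listed S100, annexin, partner, EF-hand and marker genes, the 5 genes most like each of the 3 highest members, and the leading genes of clusters. The genes most and least like S100a14, Cnfn and the other genes of the chromosome 3 span were named after their values were seen. Members and lists were chosen with earlier results of these data known. The organoids of other genotypes in the series were not analysed here.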

Additional observations from a re-analysis of the deposited data

How the results depend on the processing

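No paired analysis was possible because only the wild type library was analysed. Over 19 alternatives, 35 values that answer a comparison stayed and 4 moved. A level or r was taken as moved when it left the 95% interval of its value, and a count when it changed by over 1.5 times. Without thinning, 6 in place of 3 members were found in over 50% of cells. On thinned counts the median r of the 28 pairs was 0.0905 in place of 0.15. At Leiden resolution 1.0, 7 in place of 3 members passed 1.5 times in a cluster. Without the 17 cells rich in S100a6, chosen after seeing the data, the sum of the 8 levels was 6322 in place of 6573 CPM. At resolution 0.3, where clusters 5 and 6 fell together in a cluster of 149 cells, the ratio of S100a4 for cluster 6 turned from 0.465 to 1.46 and that of S100a16 from 1.51 to 0.997. Of the other values, 418 stayed and 95 moved. Counts limit S100a4 (205 UMIs) most, and 1 library leaves the spread between cultures unknown.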
